A study of Bos taurus with 4 samples.

Results

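Fragments of the mitochondrial ribosomal RNAs were followed in small RNA libraries of bovine oocytes taken at the germinal vesicle (GV) stage, that is, while still arrested in meiotic prophase. They were chosen as all listed sequences whose name in the files begins with Mt_rRNA, which are 2 genes of 38611 names, 756 distinct sequences of 2468643 and 2344 reads over 4 libraries. There were 2 input libraries, for which the labels give no antibody, and 2 libraries of RNA recovered with an antibody against TDRKH (the TDRKH IP). Both groups come from untreated GV oocytes as far as the labels go, and the labels give neither strain, animal age nor the number of oocytes or animals pooled. No IP with a control antibody was analysed here, so RNA bound to TDRKH and background of the IP cannot be told apart. Nothing in the labels says whether the replicates are separate collections of oocytes, and p-values may therefore reflect technical spread only.

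Mitochondria transcribe both rRNAs from their own circular genome as part of a long precursor in which tRNAs flank the rRNAs, and the precursor is cut at the tRNAs. The 12S rRNA is the RNA of the small mitochondrial ribosomal subunit and the 16S rRNA that of the large subunit. An oocyte holds very many mitochondria. TDRKH is a tudor domain protein of the outer mitochondrial membrane that binds PIWI proteins, and PIWI proteins carry piRNAs, which usually begin with T (U in RNA) and are longer than microRNAs.

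The files give the genes as identifiers only, ENSBTAG00000043570 and ENSBTAG00000043567. The first is called the 16S gene here because its reads cover the stretches at which the widely used primers for mitochondrial 16S rRNA anneal, and the second the 12S gene because its reads cover the matching primer site near the end of 12S rRNA. A position along either gene or the mitochondrial genome is not given, since no mitochondrial sequence was used here. Reads were instead joined where they share 13 bases, which gave 47 overlap groups for 16S and 33 for 12S, numbered by their reads. These are the sequences on which the results turn, as the base most read at each place, written as DNA; capitals mark the 18 bases from the most used 5′ end of each group (the more upstream one where ends tie, as in 12S group 1).
16S group 1: ACTAGACCTAGCCCAAAGataccc
16S group 2: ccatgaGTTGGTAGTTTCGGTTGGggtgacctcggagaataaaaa
16S group 3: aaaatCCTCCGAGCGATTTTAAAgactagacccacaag
16S group 4: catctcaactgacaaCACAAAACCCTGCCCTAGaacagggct
16S group 5: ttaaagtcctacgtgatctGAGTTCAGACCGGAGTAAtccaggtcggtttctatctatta
12S group 1: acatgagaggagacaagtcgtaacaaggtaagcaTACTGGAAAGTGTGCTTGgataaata
12S group 2: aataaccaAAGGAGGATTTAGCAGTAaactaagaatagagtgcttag
12S group 3: cacaCACCGCCCGTCACCCTCCtcaaata
12S group 4: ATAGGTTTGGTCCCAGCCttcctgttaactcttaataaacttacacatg
Group 5 of 16S and group 3 of 12S hold the primer sites on which the gene names rest.

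The libraries held 1079364 and 1354003 listed reads in the inputs and 11138905 and 11060320 in the IPs, and all listed reads were of 18 to 36 nt. Of the marker microRNAs, the oocyte list of 6 was at 199 to 2195 RPM (reads scaled to 1000000 listed reads) in the inputs. The cumulus and granulosa list, which shares miR-21 with it, was at 3.71 to 227 RPM there, the leukocyte list at 0 to 44.9 and the epithelial list at 4.63 to 53.7. Of single markers, miR-122 (liver) was at 434.5 and 334.6 RPM in the inputs, and of the muscle and stroma list miR-143 was at 84.3 and 63.5, miR-145 at 2.78 and 0.739, miR-1 at 0 and 7.39 and miR-133a at 0. The leukocyte marker miR-223 and the erythroid markers miR-451 and miR-144 were at 0 in all 4 libraries. Their part in the mitochondrial rRNA reads was not tested.

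Reads of both mitochondrial rRNAs were far rarer in the TDRKH IP than in the input. The 16S gene had 729 and 1091 reads in the inputs and 99 and 95 in the IPs, although the IPs were sequenced more deeply. Scaled to listed reads these are 675.4, 805.8, 8.89 and 8.59 RPM, a mean of 741 ± 92.2 RPM against 8.74 ± 0.211 (SD, n = 2 in each group mean given here). The groups lay far apart, and the input mean was 84.7-fold the IP mean. With edgeR's quasi-likelihood test over all names the log2 change of the 16S gene was -6.40 ± 0.12 (SE; Benjamini-Hochberg adjusted p = 3.76e-08).

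The 12S gene had 92 and 184 reads in the inputs and 26 and 28 in the IPs. That is 85.2 and 135.9 RPM against 2.33 and 2.53, or 111 ± 35.8 against 2.43 ± 0.140 RPM. The groups again did not overlap, and the input mean was 45.4-fold the IP mean. The log2 change was -5.51 ± 0.27 (SE; edgeR adjusted p = 3.21e-06).

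**Figure D1:**
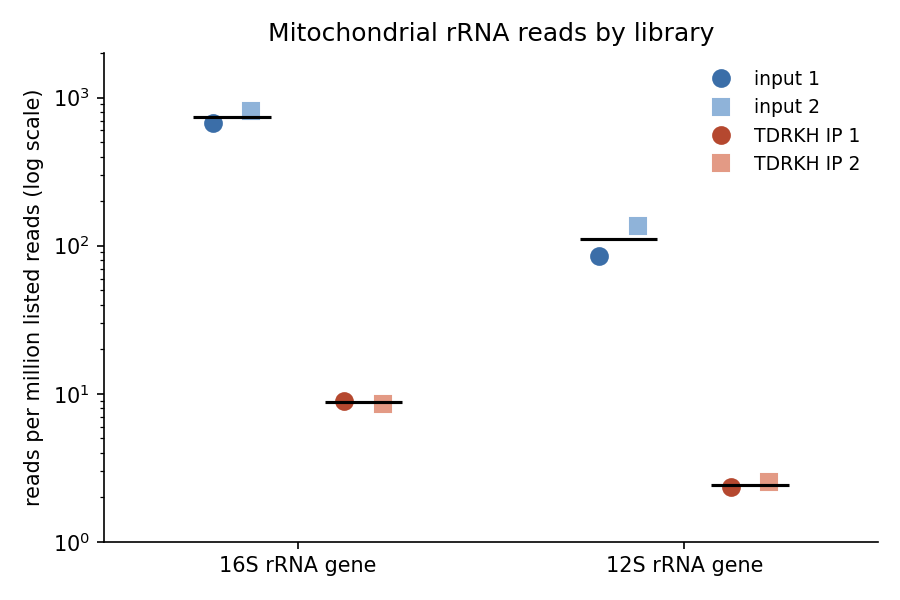
RPM (log axis) of the 16S and the 12S rRNA gene in each of the 4 libraries; points are libraries and black lines are group means. Both IPs sit near 8.7 RPM for 16S and 2.4 RPM for 12S, below both inputs.

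Both genes were thus called lower, beside 58.2% of all 5414 names tested that were called lower and 16.7% that were called higher by the same test. Over all names the median log2 change was -2.44, so the 16S gene lay 3.96 log2 units below that median and the 12S gene 3.07 below it. The scaling moved the median to -1.11 (TMM factors), -0.33 (size factors of DESeq2) and 2.24 (libraries scaled to their microRNA reads). Relative to the median of the same fit, the log2 change of 16S stayed between -3.96 and -3.89 and that of 12S between -3.07 and -3.00. These fits share the same names and differ mainly in scaling, which shifts all names nearly alike, so this steadiness was set in advance. The median also depends on depth and filter. It was -0.236 with the IPs thinned to 1079364 reads and 0.337 with no filter. In those fits 16S was at -5.88 and -6.40 and 12S at -5.84 and -5.52. Summed over both genes, the class held 851 ± 128 RPM in the inputs and 11.2 ± 0.0715 in the IPs. Its log2 change was -6.25 ± 0.37 (edgeR adjusted p = 1.34e-16), where 86.7% of the 15 RNA classes were called lower and 6.67% higher. Of the 15 classes 13 were lower and 1 higher in that fit, 8 and 6 under TMM factors, 7 and 7 under the size factors of DESeq2, and 3 and 10 when scaled to microRNA reads.

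The mitochondrial tRNAs are the other structural RNAs of the mitochondrial transcripts. All 56 mitochondrial tRNA names tested fell (48 of them when scaled to microRNA reads), and their median log2 change was -7.32. Mitochondrial tRNA reads numbered 10808 and 13010 in the inputs and 559 and 610 in the IPs. A name can pass the filter on names through the 2 inputs alone, so the counts of falling names, here and for the microRNAs, are partly set by the filter. Among 53 names of nuclear-coded rRNA, 30 fell and 3 rose, and their median of -1.06 became 0.27 under TMM factors, 1.06 under the size factors of DESeq2 and 3.68 when scaled to microRNA reads. Bovine microRNAs had a median of -5.84, with 196 of 218 names lower and 3 higher; there were 194 and 19 under TMM factors, and 110 and 28 with a median of -1.19 when scaled to microRNA reads. Fewer molecules in the IP and a larger amount of other RNA beside them cannot be told apart in such shares.

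The 16S to 12S ratio was lower in both IPs than in both inputs, and it overlapped once the most read overlap group was left out. There were 7.92 and 5.93 reads of 16S per 12S read in the inputs and 3.81 and 3.39 in the IPs. The groups did not overlap (exact two-sided permutation test, p = 0.333, the smallest that 2 against 2 libraries allow). Without the reads of 16S group 1 the ratio was 2.89 and 1.97 in the inputs and 1.88 and 2.57 in the IPs, and the groups overlapped. Group 1 was picked by its reads in these same data. It held a mean of 65.2% of the 16S reads in the inputs and 37.4% in the IPs. Leaving it out therefore lowers the input ratio more, and whether the difference lies with this group was not tested. Group 1 itself was at 429 and 538 RPM in the inputs and 4.49 and 2.08 in the IPs, a 147-fold difference of means. All other mitochondrial rRNA reads together were at 332 and 403 RPM against 6.73 and 9.04, a 46.6-fold difference.

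A single 5′ end dominated the 16S reads. Reads beginning with the 18 capitals of group 1 numbered 323 and 566 in the inputs and 47 and 22 in the IPs. They made up 44.3% and 51.9% of the 16S reads in the inputs, 47.5% in IP 1 and 23.2% in IP 2. The groups overlapped because the IPs differed from one another, with Wilson 95% intervals of 37.9% to 57.2% and 15.8% to 32.6%. These intervals cover counting error only, since reads include PCR copies. The group means were 48.1% ± 5.35 and 35.3% ± 17.2 (exact two-sided permutation p = 0.667).

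The start of group 1 was sharp. Of its 1265 reads, 91.2% began at the same base, counting variants of the end, and no 16S read carried this stretch with a base before it. Only reads named for the gene were searched. If the annotated gene begins here, reads reaching further upstream might not carry its name, and the sharp start would then partly follow from the annotation. Reads that began 1 base further in numbered 19 and 23 in the inputs and 2 and 0 in the IPs, and 2 bases further in 9, 28, 1 and 1. Whether this is the first base of the mature 16S rRNA was not tested, as it needs the mitochondrial genome.

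The 3′ ends of the same reads formed a short ladder. The forms differ only in the bases past position 18, which are shown in capitals.
19 nt: actagacctagcccaaagA
20 nt: actagacctagcccaaagAT
21 nt: actagacctagcccaaagATA
22 nt: actagacctagcccaaagATAC
The 20-nt form led in all 4 libraries, with 175 and 328 reads in the inputs and 22 and 11 in the IPs, which is 54.2%, 58.0%, 46.8% and 50.0% of the reads at that end. The 19-nt form held 15.8% and 14.7% in the inputs and 8.51% and 13.6% in the IPs. The 21-nt form held 15.2%, 20.3%, 36.2% and 9.09% and so overlapped between the groups. The mean length at this end was 20.17 and 20.15 nt in the inputs and 20.36 and 20.32 nt in the IPs, a shift of 0.182 nt with no overlap (exact permutation p = 0.333), and no read there reached 23 nt.

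The other 16S groups had less sharp starts. Group 2 held 51, 99, 10 and 7 reads in input 1, input 2, IP 1 and IP 2, or 6.996%, 9.07%, 10.1% and 7.37% of the 16S reads, and the groups overlapped. Of its reads, 46.7% shared the most used start and 55.7% shared 1 3′ end, and their median length was 19 nt. Its most used end had 15, 32, 5 and 3 reads, the second highest count in both groups, and its most abundant form was GTTGGTAGTTTCGGTTGGg, where capitals mark the first 18 bases.

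Group 3 held longer reads and a larger part of the IP reads. It had 46 and 71 reads in the inputs and 14 and 12 in the IPs, which is 6.31% and 6.51% against 14.1% and 12.6% of the 16S reads. The groups did not overlap, but the Wilson interval of IP 2 began at 7.38% and those of the inputs ended at 8.31% and 8.13%, so the intervals met. Its reads had a median length of 28 nt, and 60.1% were of 28 nt or longer, whereas group 1 had none of that length. Starts were spread over 11 bases with 25.2% at the most used one, which had 13, 17, 2 and 4 reads. The end 1 base before it had 3, 8, 5 and 2 reads, the third highest count in the IPs.
The most abundant form of each end, with its first 18 bases in capitals, shows the shift of 1 base.
most used end: CCTCCGAGCGATTTTAAAgactagacccac
1 base before it: TCCTCCGAGCGATTTTAAagactagaccc
The 3′ ends of the group were also scattered, with 18.2% of the reads at the most used of 13.

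Group 4 was low in the IP. It had 38 and 51 reads in the inputs, 5.21% and 4.67% of the 16S reads, and 0 and 3 reads in the IPs. The 0 of 99 in IP 1 has a Wilson upper bound of 3.74%, and IP 2 stood at 3.16% (1.08% to 8.88%). Group 6 ran the other way, with 14 and 16 reads in the inputs and 5 and 8 in the IPs, or 1.92% and 1.47% against 5.05% and 8.42%. The Wilson interval of IP 1, 2.18% to 11.3%, met that of input 1, 1.15% to 3.20%. Groups 3, 8, 10, 13, 19 and 33 of the 47 also held larger shares in the IPs without overlap. Groups 1, 15, 16, 21, 22, 23 and 35 held smaller shares without overlap. The smallest exact two-sided permutation p that 2 against 2 libraries allow is 0.333, so such a separation is weak evidence. Groups 13, 19, 33 and 35 held only 10, 6, 2 and 2 reads over all libraries. In RPM each of groups 1 to 8 had a lower mean in the IPs, and group 6 had 12.4 RPM in the inputs and 0.586 in the IPs. The groups singled out here were picked after their values were seen.

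**Figure D2:**
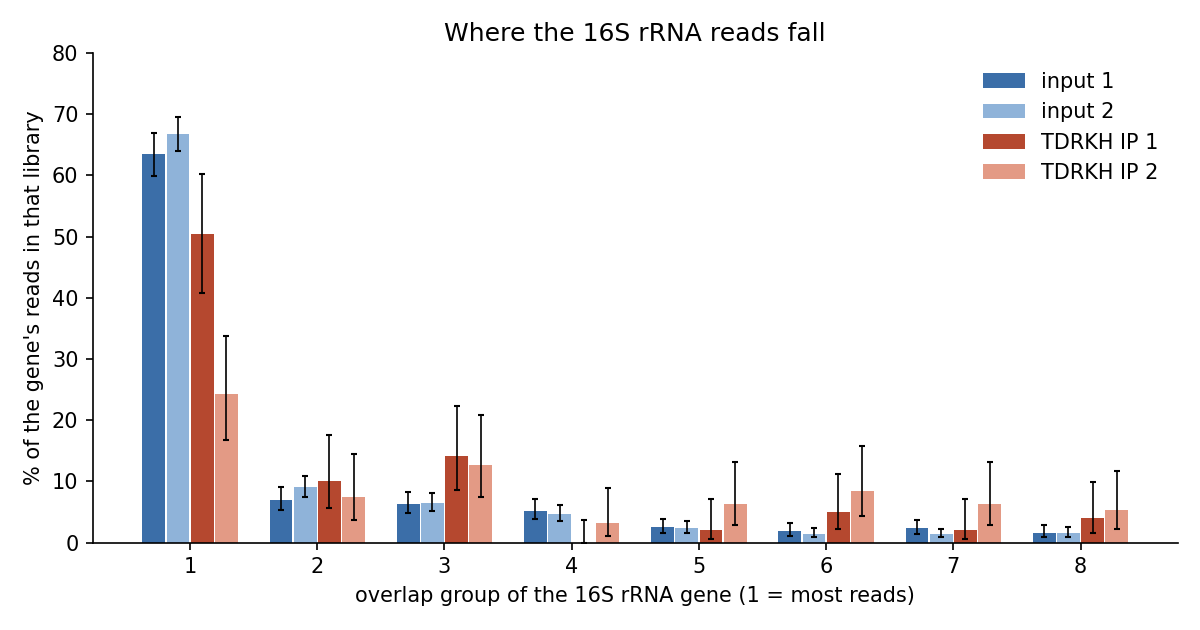
Share of the 16S reads of each library (%) in the 8 most read overlap groups; bars are libraries and error bars are Wilson 95% intervals. Group 1 holds 63.5% and 66.8% in the inputs, 50.5% in IP 1 and 24.2% in IP 2.

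**Figure D3:**
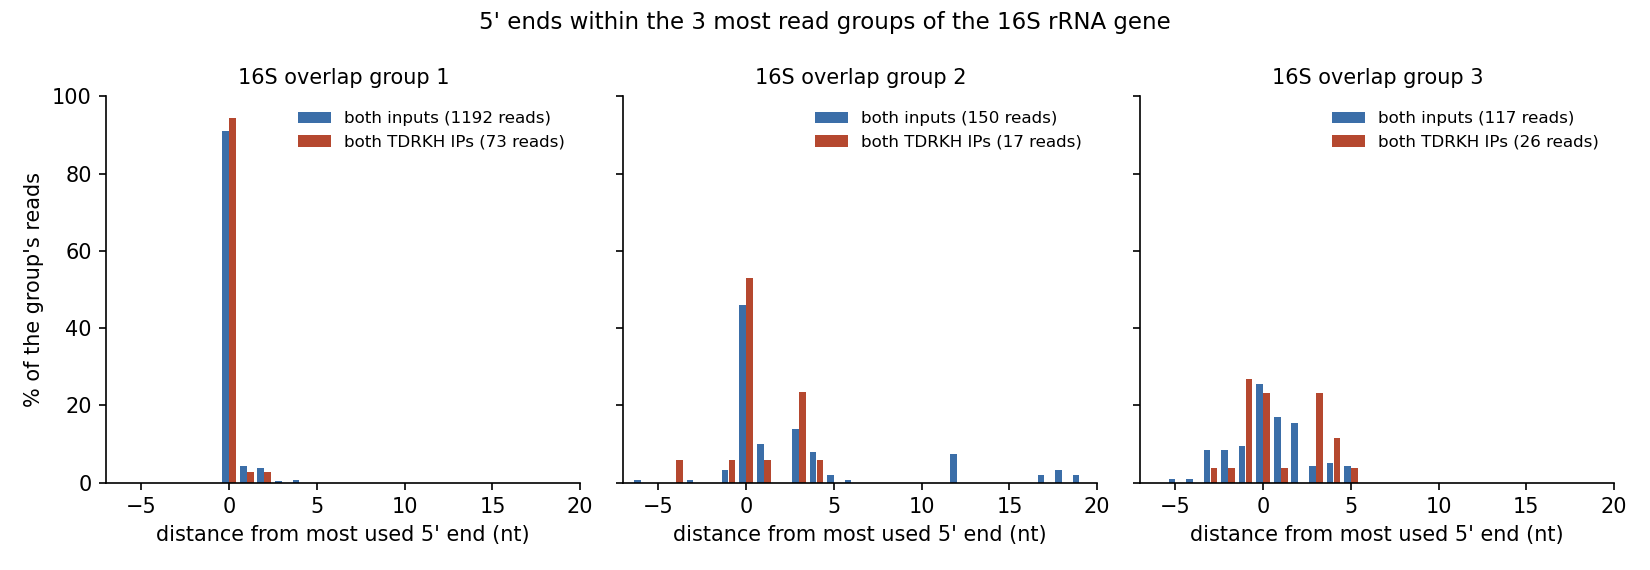
5′ ends within 16S groups 1 to 3: the x axis is the distance in nt from the group's most used 5′ end and the y axis the share of the group's reads (%), for both inputs (blue) and both IPs (red) summed. In group 1, 91.0% of input reads and 94.5% of IP reads begin at distance 0, while in group 3 these shares are 25.6% and 23.1%.

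With a hot spot defined as an end that holds at least 1% of its gene's reads in the mean of either group, 25 of 333 ends of the 16S gene were hot spots, 9 by the inputs and 21 by the IPs. With under 100 reads of the gene in each IP, 2 reads over both IPs already reach that threshold in their mean, while 1 read falls short. The count by the IPs thus depends on depth. At 2% there were 7 hot spots. Hot spots held 60.4% and 67.9% of the 16S reads in the inputs and 79.8% and 56.8% in the IPs, which overlap (exact permutation p = 1). Only 7 of the 333 ends were read in all 4 libraries.

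The 12S reads had no dominant end. No end had more than 8 reads in all, and that number was reached by the capitals of group 4, with 2, 6, 0 and 0 reads in input 1, input 2, IP 1 and IP 2, and by those of group 3, with 3, 5, 0 and 0. The capitals of group 2 had 3, 4, 0 and 0 reads. The ends AATTATTCGCCAGAGTAC (4, 2, 0 and 0 reads), GAAATGGGAAGAAATGGG (2, 4, 0 and 0) and CAAAGGAGGATTTAGCAG (5, 0, 1 and 0) completed the 6 most read in the inputs. In the IPs the leading end was AAAGGAGGATTTAGCAGT with 0, 1, 2 and 2 reads, which lies 1 base before the capitals of group 2. It was followed by AAAACTAAGAGGAGCTGG with 1, 0, 2 and 1 reads and ACACACCGCCCGTCACCC with 0, 2, 1 and 1. No 12S end passed the filter of the test on ends given below, so a difference at a single 12S end was not tested. Counts this small do not settle the share of a single end. At 1%, 100% of the 12S reads of both IPs counted as hot spots because 1 read of 26 or 28 exceeds it.

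Of the 12S overlap groups, 3 are given here that were picked out after their values were seen. Group 1 had 17 and 32 reads in the inputs and 2 and 1 in the IPs, a mean of 17.9% ± 0.769 against 5.63% ± 2.91 of the 12S reads. Group 2 had 14 and 19 against 5 and 7 reads, or 12.8% ± 3.46 against 22.1% ± 4.08. Group 7 had 6 and 10 reads in the inputs and none in the IPs. In none of these did the values of inputs and IPs overlap, but the same held for groups 3, 5, 6, 8, 10, 14, 15 and 16 of the 33. The smallest exact two-sided permutation p that 2 against 2 libraries allow is 0.333, so such a separation is weak evidence. Each IP value of groups 1, 2 and 7 rests on at most 7 reads, and the Wilson intervals met. For group 1 these were 11.9% to 27.6% and 12.6% to 23.5% in the inputs and 2.14% to 24.1% and 0.633% to 17.7% in the IPs. Reads of groups 2 and 4 had median lengths of 28 and 32 nt, and those of groups 3, 5 and 6 a median of 20 nt.

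Ends of 18 bases were also tested across all annotated reads, of which 10400 had at least 10 RPM in 2 libraries. Only 5 ends of the mitochondrial rRNAs passed this filter, all of 16S and all through the inputs, so their direction is no support for the change of the genes. All 5 were called lower, beside 24.4% of all ends called lower and 35.3% called higher. Over all ends 2540 were lower and 3674 higher, which became 2748 and 854 under TMM factors and 360 and 9849 when scaled to microRNA reads; of the 5 ends, 5 and 3 were then called lower. The most used 16S end had a log2 change of -6.84 ± 0.32 (edgeR adjusted p = 9.95e-14). The main end of group 2, GTTGGTAGTTTCGGTTGG, was at -5.65 ± 0.49 (adjusted p = 1.43e-09) and that of group 3, CCTCCGAGCGATTTTAAA, at -5.41 ± 0.47 (adjusted p = 1.74e-09). Scaled to microRNA reads, the last 2 no longer passed (adjusted p = 0.0925 and 0.219). CTAGACCTAGCCCAAAGA, the start 1 base into group 1, was at 17.6 and 17.0 RPM in the inputs and 0.1796 and 0 in the IPs.

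With the mitochondrial rRNA reads as library size, the test asks whether an end holds another share of these reads in the IP. The most used 16S end did not pass (log2 change ACTAGACCTAGCCCAAAG -0.59 ± 0.40, edgeR adjusted p = 0.144), nor did the main ends of group 2 (0.55 ± 0.69, adjusted p = 0.430) and group 3 (0.74 ± 0.75, adjusted p = 0.331). With its 1-mismatch variants added, the most used end was lower at -0.90 ± 0.37 (adjusted p = 0.0179), and without input 1 it was lower at -0.68 (adjusted p = 0.0210). Without another library it was not called, at -0.50 without input 2, -1.23 without IP 1 and -0.16 without IP 2 (adjusted p = 0.101, 0.197 and 0.849), so its size rests on which IP is kept. Since 96% of all ends were called higher and 1.34% lower on this scale, adjustment leaves the p-values nearly as they were. The 1 end called lower, ACTAGACATAGCCCAAAG (adjusted p = 0.0186), is the variant C8A of the most used end, with positions counted from 1 at the 5′ end of the read. It had 11 and 14 reads in the inputs, 1.19% of 2096 mitochondrial rRNA reads, and 0 of 248 in the IPs, which allows up to 1.21%. At this depth the counts themselves do not separate the groups, and the call was lost when any 1 of the 4 libraries was left out (adjusted p = 0.0517 to 0.0938), while the fitted log2 change stayed between -6.18 and -5.29 beside -5.84 with all 4.

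Reads 1 mismatch away from the most used end were frequent in the inputs and absent from the IPs. There were 99 and 97 such reads in the inputs, 23.5% (Wilson interval 19.7% to 27.7%) and 14.6% (12.1% to 17.5%) of the reads of the end and its variants. The IPs had 0 beside 47 and 22 reads of the end, with upper bounds of 7.56% and 14.9%. They held 40 of the 54 possible single substitutions, and 35.7% of them were C-to-A changes. The leading ones were C8A with 25 reads, C14A with 20, A10G with 17 and C13A with 13.

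Other RNAs in the same libraries showed the same order. The ends of each set were ranked by their reads in the inputs. For the top 10 ends of mitochondrial tRNAs the share of 1-mismatch reads was 31.0% and 19.8% in the inputs and 2.50% and 2.01% in the IPs. It was 26.2%, 18.8%, 11.8% and 11.99% for the top 10 ends of bovine microRNAs, where related microRNAs can differ by 1 base. For those of piRNA clusters it was 29.2%, 24.1%, 10.4% and 11.3%. The number of distinct mitochondrial rRNA sequences in a library therefore includes variants that move with the library.

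**Figure D4:**
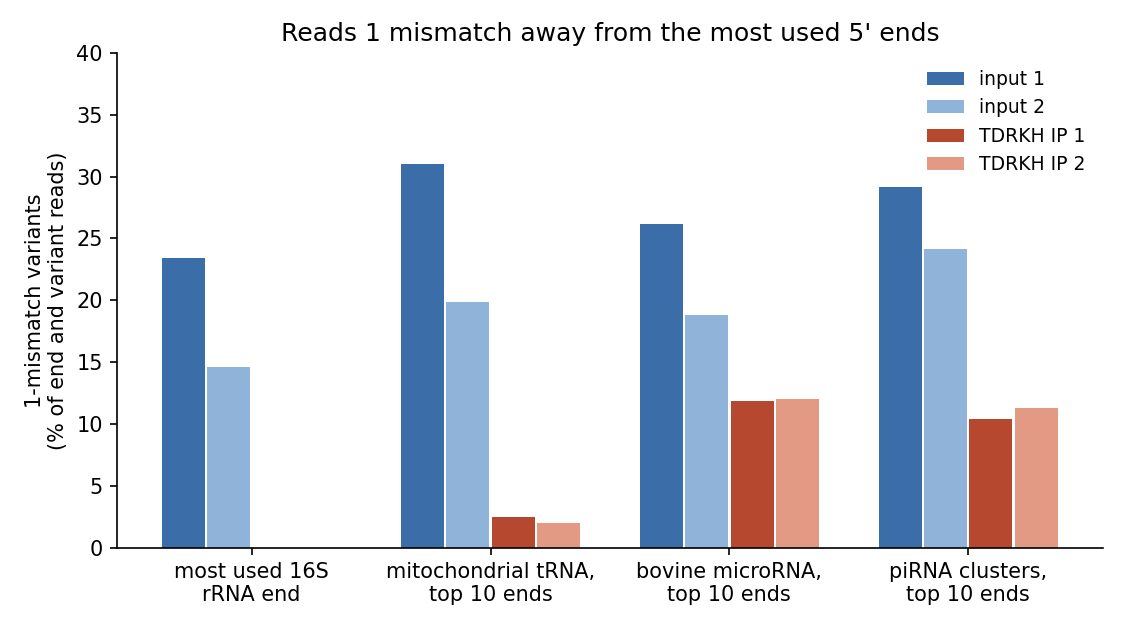
Reads 1 mismatch away from the most used 5′ ends, as a percentage of the reads of the ends and their variants, by library, for the most used 16S end and for the top 10 ends of 3 other RNA sets. Ends were ranked by their reads in the inputs. Both inputs lie above both IPs in each set; for the 16S end the IPs are at 0 of 47 and 22 reads of the end.

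Sequences shared between input and IP are only described, since the matching counts over all listed sequences are not given here. Of the 756 sequences 42 were read in both groups, 588 in the inputs only and 126 in the IPs only, and 7, all of 16S, were read in all 4 libraries. Sequences seen a single time in a library made up 21.7% and 21.6% of the reads in the inputs, 55.2% in IP 1 and 78.0% in IP 2. Drawn down to 123 reads each, the libraries would be expected to hold 71.3 and 66.1 distinct sequences in the inputs, 75.9 in IP 1 and 103 in IP 2. For 5′ ends the numbers were 61.0 and 56.3 against 58.2 and 83.0, so the groups overlapped and IP 2 stood apart from the other 3 libraries.

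The 16S reads were short and somewhat longer in the IP. Their mean length was 21.08 and 20.88 nt in the inputs and 21.68 and 21.48 nt in the IPs, and reads of 18 to 20 nt made up 67.5%, 70.1%, 54.5% and 55.8%. Neither measure overlapped between the groups (exact permutation p = 0.333 for each). Without the most used end and its variants the mean lengths were 22.41, 22.09, 22.87 and 21.84 nt and overlapped. The 12S reads averaged 23.14, 22.99, 24.19 and 23.39 nt. All listed reads, which are mostly piRNAs, averaged 25.21, 25.29, 25.05 and 24.95 nt.

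**Figure D5:**
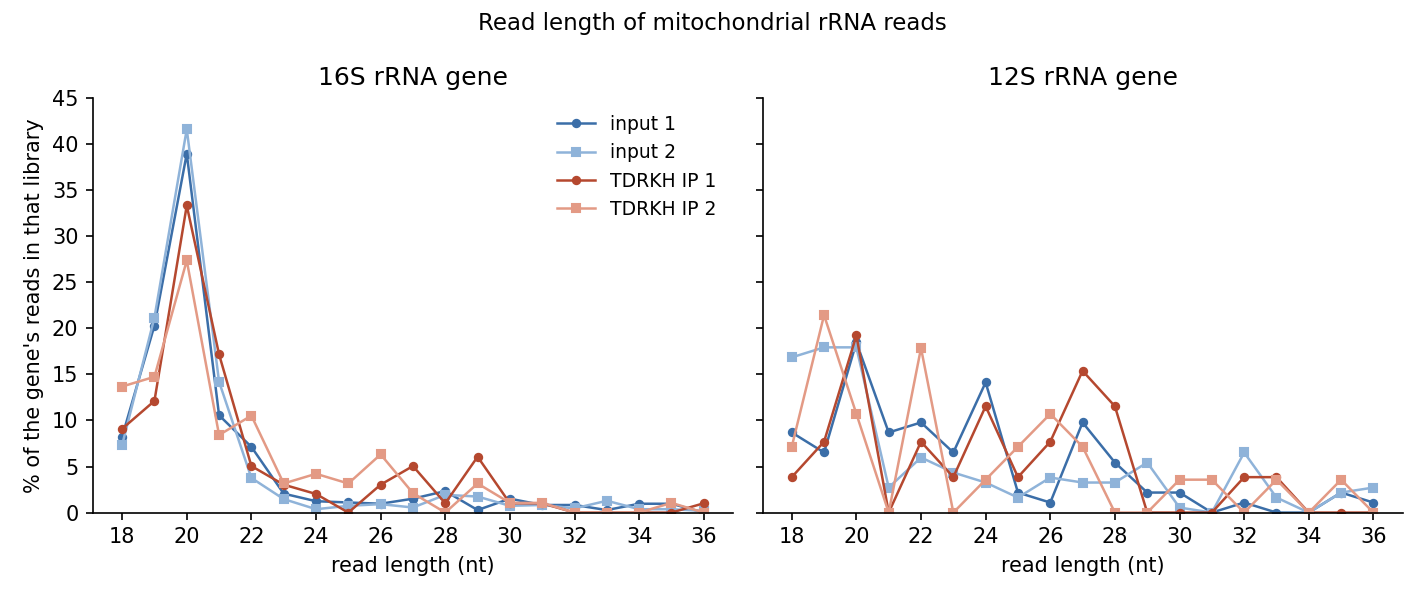
Read length (nt) against the share of the gene's reads in each library (%), for the 16S gene (left) and the 12S gene (right). The 16S reads peak at 20 nt with 38.96% and 41.6% in the inputs and 33.3% and 27.4% in the IPs, and the 12S reads show no single peak shared by all 4 libraries.

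The first base was A in most 16S reads of the inputs and of IP 1, and few reads of any library began with T. A was first in 70.0% and 68.9% of the 16S reads in the inputs and in 63.6% and 43.2% in the IPs. T was first in 7.82%, 9.62%, 11.1% and 14.7%, against 82.4%, 82.6%, 88.2% and 87.4% of all listed reads. Without the most used end and its variants A was first in 29.0%, 21.5%, 30.8% and 26.0% and T in 18.6%, 24.1%, 21.2% and 19.2%, and for both bases the groups overlapped. In the 12S reads A was first in 35.9% and 42.4% in the inputs and 65.4% and 67.9% in the IPs, and G in 21.7%, 20.1%, 7.69% and 3.57%. The groups did not overlap for either base (exact permutation p = 0.333 for each), and the interval of IP 1 for A, 46.2% to 80.6%, met that of input 2, 35.5% to 49.6%.

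No read came from the opposite strand as far as the reads themselves can show. Of 2014 reads of 16S and 330 of 12S, 0 shared 13 bases with the reverse complement of another read of the gene, which allows shares of up to 0.149% and 0.909%. Antisense reads that the annotation would list under another name, or that overlap no sense read, are outside this count.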

How the data were processed

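Small RNAs of 18 to 36 nt were listed for 4 libraries, prepared with a NEXTflex kit and sequenced single-end, per the labels' protocols. The deposited files hold raw read counts per distinct sequence with the names given by unitas, per the file names; its settings, filters and genome build were not given in the sources used here. Totals are of annotated reads only. A read was split evenly over its names where it had more than 1; 3 sequences with 8 reads carried a second name beside Mt_rRNA. Counts per name, RNA class and 18-base 5′ end were compared with edgeR 4.0.16 (quasi-likelihood; R 4.3.3), with listed reads as library size and Benjamini-Hochberg adjustment over the whole table at 0.05. Names were filtered with filterByExpr and ends at 10 RPM in 2 libraries. Overlap groups joined reads by 13 bases and took in variants of up to 2 mismatches. Shares were compared by exact permutation tests (scipy 1.17.1), and their Wilson intervals are at 95%. With 821, 1275, 125 and 123 mitochondrial rRNA reads in input 1, input 2, IP 1 and IP 2, an IP read is close to 1% of the class, and 3 counts, the limit that a count of 0 allows, are 0.269 and 0.271 RPM in the IPs and 2.78 and 2.22 in the inputs. The tests were tested on simulated counts with 200 names or 200 ends lowered and otherwise equal groups. A shift over most names, as in these data, was not simulated, so the figures may not carry over. Of names lowered 2-fold, 4-fold and 16-fold, 23 of 67, 45 of 72 and 52 of 61 were called lower, with 8 false calls. For ends these were 21 of 61, 64 of 72 and 67 of 67, with 10 false calls. Named ends were, per gene, the 6 hot spots with the most input reads, the 3 with the most IP reads and the 3 largest called changes within the class in each direction. Members, lists and rules were chosen with earlier results of these data known. Alternatives were TMM factors, DESeq2 1.42.0, total microRNA reads, other filters, whole sequences, single names, distinct sequences, thinned IPs, a replicate block, and leaving out each library; 2 more were added after the data were seen.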

Additional observations from a re-analysis of the deposited data

How the results depend on the processing

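Under every alternative run, both genes and the class were lower in the IP and passed the threshold; the log2 change lay between -6.52 and -1.64 for 16S, -5.84 and -0.76 for 12S and -6.39 and -1.49 for the class, the smallest when scaled to total microRNA reads. Of the 5′ ends called lower, 5 in all, there were 3 with total microRNA reads, 3 with distinct sequences, 11 with a 5 RPM filter and 1 with a mean filter, the last 3 with other numbers of ends tested. Within the class the 1 call became 0 with the mean filter and with Mt_rRNA names only, where that end was not among those tested, and ranged from 0 to 1 when a library was left out; the end called differed between those fits. The share of reads at hot spots, IP minus input, moved from 4.18 points for 16S to between 0.285 and 33.7 and from 41.8 points for 12S to between 0 and 45.1 when a library was left out. Hot spots are defined anew in each such fit: a lone IP reached 100% for 16S, and a lone input 1 reached 100% for 12S. At 2% the difference was -4.19 for 16S, the opposite sign, and 13.5 for 12S. The share of the most used 12S end, with the end chosen anew in each fit and the group 3 end taken in the main tie, moved from -2.99 to between -3.51 and -2.99 points. For both genes together the length difference of 0.814 nt became 0.390 with distinct sequences and 0.317 without the most used end. The difference in first A, -9.23 points, reversed to 1.77 and 10.8, and that in first T, 3.57 points, to -0.122 and -1.36. For 16S alone without that end, first A was at 3.16 and first T at -1.15 points.

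The replicate numbers are shared only as numbers. Deviations of libraries with the same number correlated at -0.0121 over names and 0.0517 over ends, and with a replicate block the log2 changes were -6.40 for 16S, -5.48 for 12S and -6.24 for the class, with the same calls. Merging 1-mismatch variants and leaving out the most used end were chosen after seeing the data. The few IP reads limit every share given for a single end or group.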
